A study of Homo sapiens with 52 samples.

Results

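The intermediate filament genes KRT7, KRT8, KRT18, KRT19, KRT80, KRT81 and VIM are described here as they were expressed in 2 human endothelial cell lines. They were chosen by name, with their levels in untreated cells of both lines and in TeloHAEC under IL-1β in view, and are 7 of the 43290 gene symbols in the deposited table. The comparison of the lines, the comparisons that use the IL-1β libraries of TeloHAEC and the 2 kinds of untreated control set side by side are therefore given as levels, with no p-value. The other comparisons carry p-values adjusted over all genes of a fit. Those in parental cells use the same untreated libraries that were in view, so their p-values are not free of the choice of genes.

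Keratins form filaments only as pairs of a type I and a type II protein, and an unpaired partner is usually degraded. KRT18 and KRT19 are type I keratins, whereas KRT7, KRT8, KRT80 and KRT81 are type II. KRT8 with KRT18 is the pair of simple epithelia, KRT7 and KRT19 are found in duct-like epithelia, KRT80 occurs in many epithelia, and KRT81 is a hair keratin. Vimentin, a type III protein encoded by VIM, assembles with itself and is the main filament of endothelial and mesenchymal cells. Keratin filaments are anchored at desmosomes and, on the matrix side, at hemidesmosomes, which hold the α6β4 integrin (ITGA6 and ITGB4), collagen XVII (COL17A1) and plectin (PLEC).

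TeloHAEC is an aortic endothelial line kept dividing by added telomerase. Eahy926 is a hybrid endothelial line, so its transcripts come from a fusion of an endothelial cell with a carcinoma cell. Parental cells of each line were left in their own growth medium or received IL-1β or TNFα (10 ng/ml) or altered VEGF over 24 h, with 3 libraries in each of 8 groups numbered 1.1 to 1.3. The VEGF label names medium with VEGF added for Eahy926 and medium without its usual VEGF for TeloHAEC. Each line also had 2 untreated libraries numbered 0.1 and 0.2, which are shown apart. A second set of 24 libraries was made from TeloHAEC that express dCas9-KRAB-BFP under doxycycline control, in which a guide RNA brings a repressor to a promoter (CRISPR interference). All of these cells, controls included, carried the repressor and a guide vector and received doxycycline at 2 µg/ml for 5 days. In these, 10 genes were targeted by 2 guides each, named here by their well codes, and 4 non-targeting guides served as controls. The guides of a target stood as its replicates in the fit, so p-values there mix differences between guides with those between libraries.

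All values are TPM (transcript abundance as a share of the library), which are scaled for transcript length and so can be compared between genes. The parental and CRISPRi sets were quantified separately and are not compared with each other. Of the 7 genes, 7 passed the filter on low values in the parental set, and 6 did in the CRISPRi set, where KRT81 did not. Nothing in the labels tells separate cultures from repeat libraries of one culture, and p-values measure the spread between these libraries only. TPM hold no read counts, so depth is unknown. In the untreated cells numbered 1.1 to 1.3, 10 of 10 endothelial markers reached 1 TPM in TeloHAEC and 8 of 10 did in Eahy926, where EMCN and CLDN5 were at 0. Of 9 epithelial markers other than keratins, 2 reached 1 TPM in either line, their sum was 2.92 to 3.75 TPM in TeloHAEC and 4.72 to 8.35 TPM in Eahy926, and GRHL2 was at 0 in both. As these are bulk libraries, fewer cells of a kind and less RNA per cell cannot be told apart.

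The guides of the 4 targets whose knockdown libraries had the most KRT18 are shown because the results on KRT18 and KRT19 rest on them. They are written 5′ to 3′ as the labels give them, with the 12 bases next to the PAM in capitals. The last 20 bases were matched to GENCODE 29 transcripts and RefSeq promoters on GRCh38.p14.
CCM2 C2: ggcaagaaGGTGAGCGTGCG
CCM2 F6: gagccgctaCATGCTCGACCC
PDCD10 D11: gaccgagcAGAAGAGGTCTA
PDCD10 G1: gccgctttaCGCCACTCGCGT
ITGB1BP1 C7: gaaggccgcGGCACTCCCACG
ITGB1BP1 G8: gccgcggtATATAAGCCGGC
MESDC1 B3: gtggctgcgCCGCCGCCCGCA
MESDC1 D12: gcctccggcAGCCCCTGCGGG
KLF2 G10: gaagtccgCAACCCGGGGAT
Of these 9, 5 matched their own target. Among them ITGB1BP1 C7 also matched the promoter of another gene, CPSF3, with a CGG PAM beside it. The part of CPSF3 in the ITGB1BP1 results was not tested. CCM2 C2 and PDCD10 D11 matched no transcript or promoter searched, although their targets were low in those libraries. Of all 20 targeting guides, 13 matched their own target and 5 matched nothing searched, among them MAP2K5 A11 and NFAT5 D7, whose targets stood at 105% and 97.1% of the non-targeting mean. The sequence listed for ITGB1BP1 G8 matched the KLF2 promoter, 139 bases before the RefSeq start, and the sequence listed for KLF2 G10 matched ITGB1BP1 transcripts. The RNA went the other way: library G8 had 9.61 TPM of ITGB1BP1 and 486 TPM of KLF2, and library G10 had 61.5 TPM of ITGB1BP1 and 6.12 TPM of KLF2. The libraries are therefore named by the target on their label, which their RNA bears out, and not by the listed sequence.

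**Figure D1:**
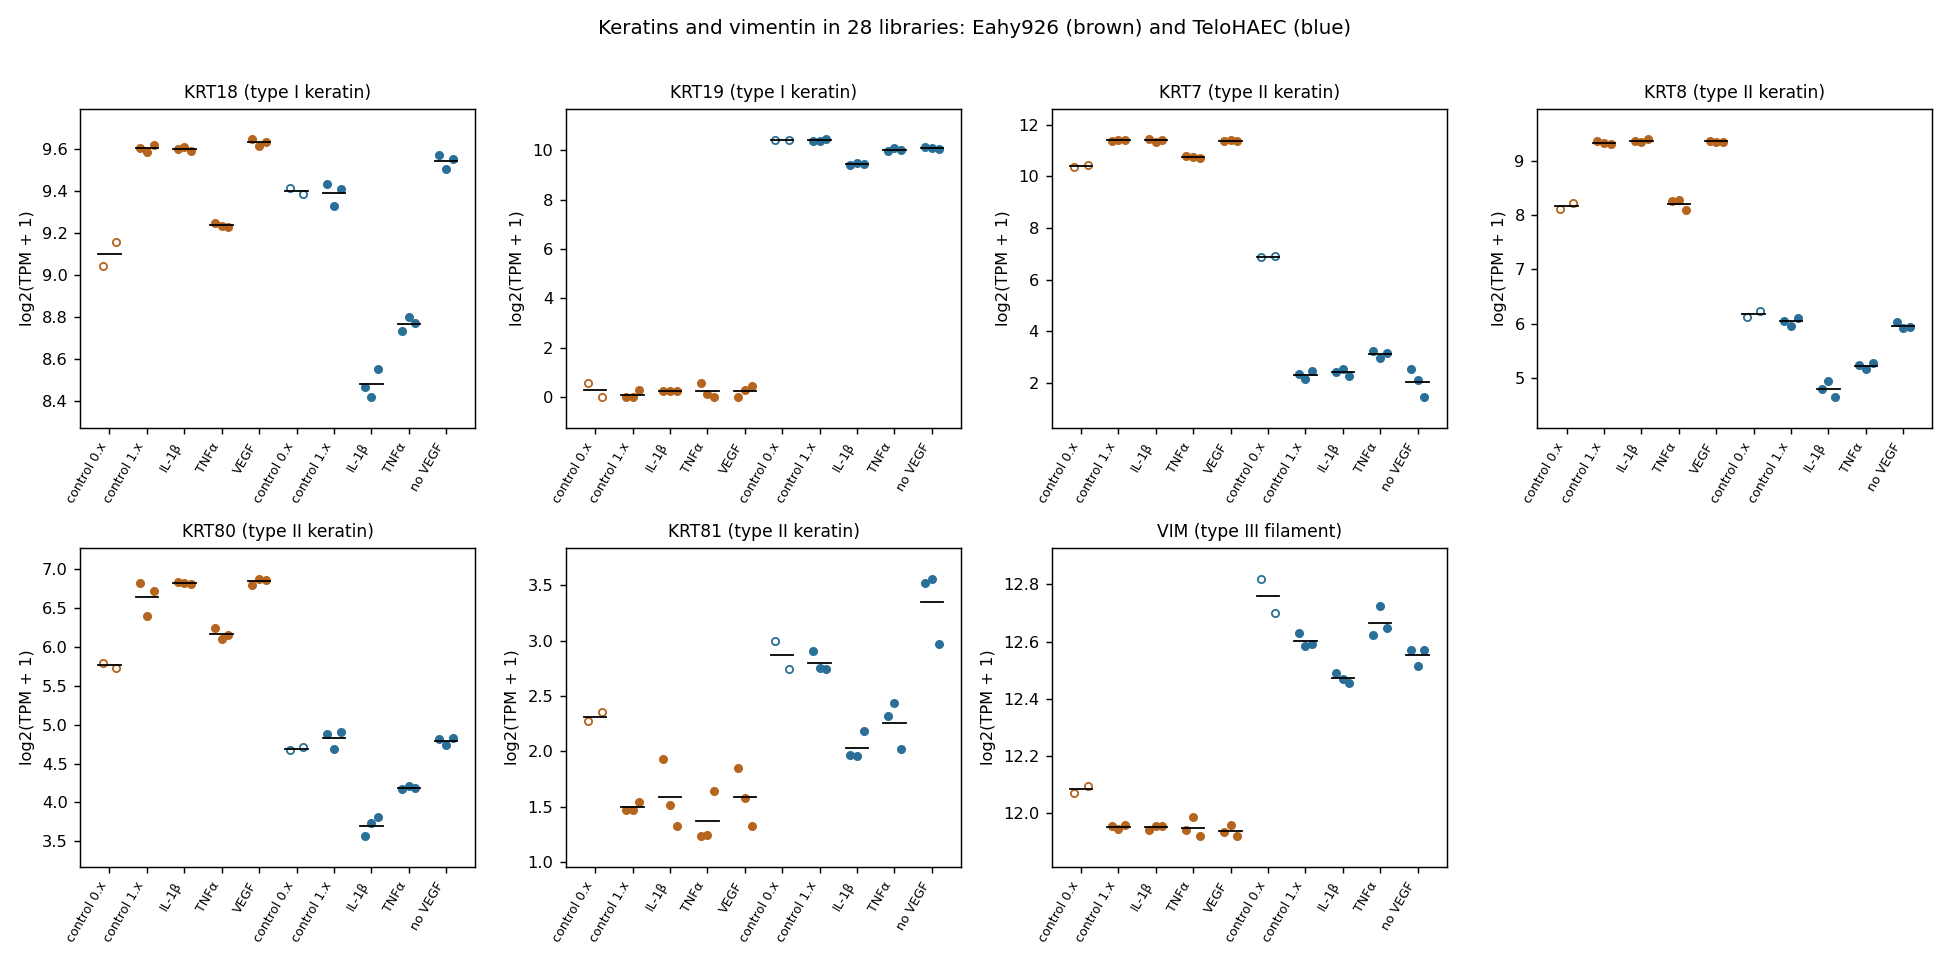
Level of each gene in the 28 parental libraries, on a log2(TPM + 1) axis that differs between panels and does not start at 0. Points are libraries (open for controls numbered 0, filled for those numbered 1.1 to 1.3 and the treatments) and black lines are group means; KRT19 lies at 0.497 TPM or below in each Eahy926 library and KRT7 at 8.52 TPM or below in the TeloHAEC libraries numbered 1.1 to 1.3.

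The lines used different keratins. KRT19 stood at 1313, 1341 and 1382 TPM in untreated TeloHAEC and at 0, 0 and 0.226 TPM in untreated Eahy926. KRT7 was the reverse, with 4.09, 3.43 and 4.45 TPM in TeloHAEC and 2657, 2744 and 2721 TPM in Eahy926. For both genes the groups lay far apart. KRT8 was 65.0 ± 3.23 TPM (SD, n = 3) in TeloHAEC and 642 ± 13.2 TPM in Eahy926, and KRT80 was 27.4 ± 2.34 and 100.1 ± 14.7 TPM. KRT18 was nearly level, at 669.7 ± 25.9 TPM in TeloHAEC and 776 ± 9.61 TPM in Eahy926. VIM was the most abundant of the 7 genes in either line, at 6213 ± 109 TPM in TeloHAEC and 3957 ± 21.4 TPM in Eahy926. KRT81 was low, at 5.98 ± 0.452 and 1.82 ± 0.0833 TPM. limma called 76.2% of all genes between the lines (adjusted p under 0.05), and the 7 genes were chosen on this contrast, so nothing is read from all 7 being among them.

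The order of the genes within a line followed from this. In untreated TeloHAEC it was VIM, KRT19, KRT18, KRT8, KRT80, KRT81 and KRT7, where KRT81 and KRT7 lay at 5.70 to 6.50 and 3.43 to 4.45 TPM without overlap. In untreated Eahy926 it was VIM, KRT7, KRT18, KRT8, KRT80, KRT81 and KRT19, and no neighbours in that order overlapped. The type I sum (KRT18 and KRT19) was 2015 ± 41.3 TPM in TeloHAEC against 102 ± 6.13 TPM for the 4 type II genes, a ratio of 19.7 ± 0.901. In Eahy926 the sums were 776 ± 9.72 and 3451 ± 22.2 TPM, a ratio of 0.225 ± 0.00353. Thus at the RNA level the type I genes of this set were in excess in TeloHAEC and the type II genes in Eahy926. The other 49 keratins in the table did not even out these sums, since together they came to 109 to 118 TPM in TeloHAEC and 75.5 to 83.8 TPM in Eahy926.

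**Figure D2:**
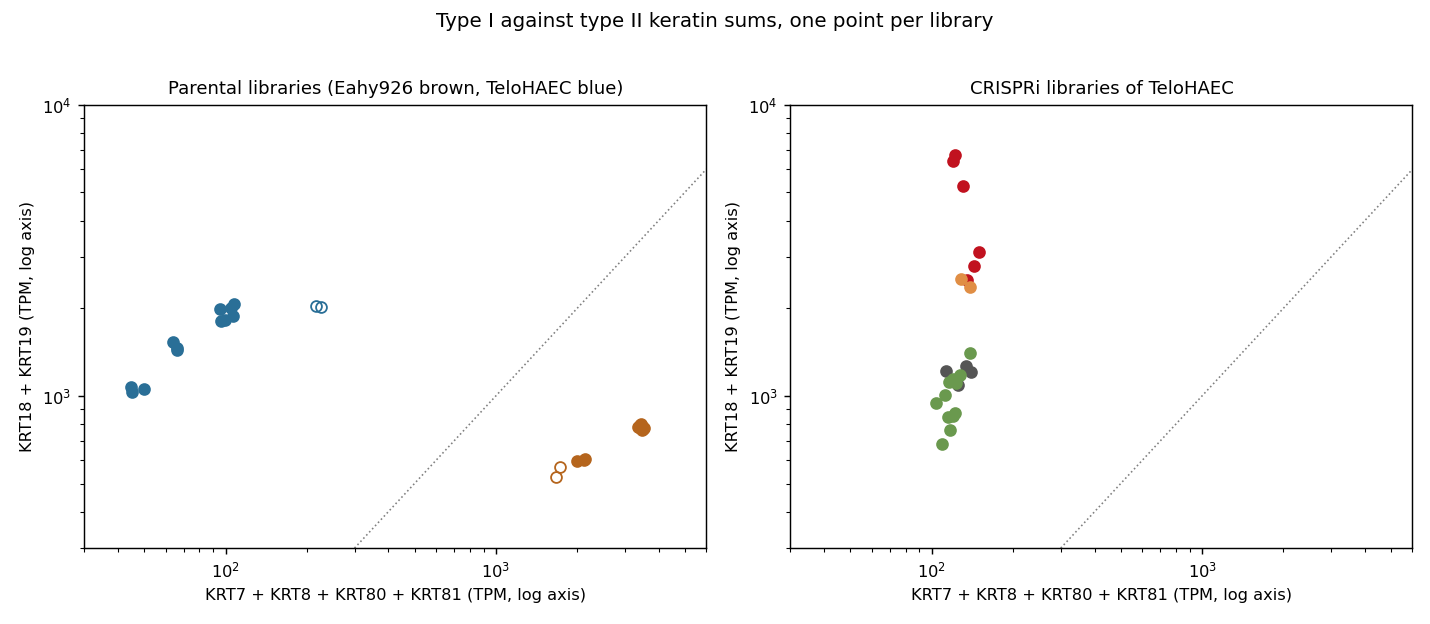
Sum of KRT18 and KRT19 (type I) against the sum of KRT7, KRT8, KRT80 and KRT81 (type II), 1 point per library, both axes logarithmic, with open circles for controls numbered 0 and a dotted line of equal sums. TeloHAEC libraries lie above the line and Eahy926 libraries below it, and the CRISPRi libraries of CCM2, PDCD10 and ITGB1BP1 (red) and MESDC1 (orange) spread upwards with little change along the type II axis, against non-targeting (grey) and the other targets (green).

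The untreated libraries numbered 0 did not match those numbered 1.1 to 1.3 for every gene. In TeloHAEC, KRT7 stood at 116 and 120 TPM in libraries 0.1 and 0.2, a mean 29.6 times that of the controls numbered 1.1 to 1.3. Only 10 of 13967 genes with at least 1 TPM in 3 of the 28 parental libraries, KRT7 included, lay at least as far from the controls numbered 1.1 to 1.3 on the log2 scale. KRT18, KRT19, KRT80 and KRT81 overlapped between these controls of TeloHAEC. KRT8 (68.6 and 74.7 TPM) and VIM (7230 and 6652 TPM) lay a little above them. In these libraries KRT7 stood above KRT8, unlike the order given above, the type II sum was 221 ± 6.89 TPM, and the ratio of type I to type II was 9.19 ± 0.355. In Eahy926, libraries numbered 0 had less KRT7 (1332 and 1375 TPM), less KRT8 (274 and 299 TPM), less KRT18 (525 and 570.1 TPM) and less KRT80 (54.7 and 52.3 TPM), all below the 3 controls of that line. KRT81 (3.83 and 4.12 TPM) and VIM (4299 and 4370.2 TPM) lay above them. Of 19 genes at 50 TPM or more in Eahy926 controls and under 1 TPM in TeloHAEC controls numbered 1.1 to 1.3, 1 reached 1 TPM in the TeloHAEC libraries numbered 0, with a median of 0.0455 TPM. The median absolute log2 difference between the 2 kinds of control over all genes was 0.247 in TeloHAEC and 0.237 in Eahy926. In TeloHAEC numbered 0, 8 fibroblast markers summed to 1165 to 1171 TPM, against 240.04 to 251 TPM in controls numbered 1.1 to 1.3. For 9 epithelial markers the sums were 10.5 to 10.8 against 2.92 to 3.75 TPM, and leukocyte and mesothelial sums were also higher. Endothelial sums overlapped, and 5 smooth muscle markers summed to less, 70.9 to 74.2 against 83.4 to 86.0 TPM. The part of these markers in the KRT7 values was not tested.

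IL-1β, an inflammatory cytokine, went with lower keratin RNA in TeloHAEC. KRT8 was 26.8, 29.9 and 24.2 TPM with IL-1β against 65.4, 61.6 and 68.0 TPM without. KRT18 was 352, 341 and 374 TPM against 689.6, 640.4 and 679 TPM. KRT19 was 677, 713 and 697 TPM against 1313, 1341 and 1382 TPM. These 3 groups of libraries lay well below their controls. KRT80 was 12.1 ± 1.13 against 27.4 ± 2.34 TPM, and KRT81 was 3.11 ± 0.375 against 5.98 ± 0.452 TPM. VIM was 5679 ± 68.4 against 6213 ± 109 TPM, a log2 difference of -0.13 that was -0.06 once libraries were rescaled by the median of ratios. KRT7 overlapped its controls, at 3.81 to 4.85 against 3.43 to 4.45 TPM. In all, 6 of the 7 genes were called, all lower, among 31.1% of all genes (31.8% of these higher, or 47.4% after rescaling), and since the IL-1β values were known when the genes were chosen nothing is read from that. Of 8 fibroblast markers, 1 reached 1 TPM in these cells, POSTN, and DCN and LUM were at 0 in the controls. The sum of the 8 was 240.04 to 251 TPM in controls, 96.6 to 105 TPM with IL-1β and 98.3 to 121 TPM with TNFα, so it too was lower with either cytokine. Its part in the keratin values was not tested.

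In Eahy926 given the same dose of IL-1β, these genes stayed close to their controls. KRT8 was 661, 649 and 669.9 TPM with IL-1β against 655, 639.9 and 629 TPM without. KRT18 was 773, 780.2 and 769 TPM against 776, 766 and 785 TPM. The 95% interval of the log2 change was -0.08 to 0.16 for KRT8, -0.07 to 0.06 for KRT18, -0.33 to 0.31 for KRT7 and -0.05 to 0.05 for VIM. It was 0.00 to 0.35 for KRT80 (adjusted p = 0.436 in limma) and -0.26 to 0.45 for KRT81, and KRT19 was 0.196 TPM or less. None of the 7 genes was called by limma (1 had an unadjusted p under 0.05), while 0.00738% of all genes were. The difference between the lines in the log2 change was -1.28 ± 0.08 (SE) for KRT8, -0.91 ± 0.05 for KRT18 and -1.30 ± 0.12 for KRT80. In that difference 6 of the 7 genes, all but KRT7, were called, among 22.5% of all genes (26.5% of these positive, or 48.1% after rescaling). It rests on the same TeloHAEC libraries and is given as a description.

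TNFα, another inflammatory cytokine, lowered KRT8 and KRT18 in both lines. In TeloHAEC KRT8 fell to 36.7, 35.0 and 37.9 TPM (log2 change -0.82 ± 0.06, adjusted p = 5.16e-10 in limma), and in Eahy926 it fell to 304, 309 and 273 TPM (-1.12 ± 0.06, adjusted p = 2.07e-12). KRT18 fell to 424, 444 and 436 TPM in TeloHAEC (-0.62 ± 0.03) and to 607, 601 and 599 TPM in Eahy926 (-0.36 ± 0.03). KRT80 also fell in both, to 17.2 ± 0.216 TPM in TeloHAEC (-0.64 ± 0.08) and to 71.1 ± 3.82 TPM in Eahy926 (-0.48 ± 0.08). In each of these 6 comparisons the treated libraries lay below all 3 controls. VIM was not called in either line, with 95% intervals of 0.01 to 0.12 in TeloHAEC (adjusted p = 0.0693) and -0.05 to 0.05 in Eahy926. In Eahy926 the libraries numbered 0, untreated, were near or below these TNFα levels, with 525 and 570.1 TPM of KRT18, 274 and 299 TPM of KRT8 and 54.7 and 52.3 TPM of KRT80. With them added as controls, the change in Eahy926 was -0.65 for KRT8 (adjusted p = 0.0309), -0.16 for KRT18 (adjusted p = 0.264) and -0.13 for KRT80 (adjusted p = 0.691).

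KRT7 moved in opposite directions with TNFα. In TeloHAEC it rose from 4.09, 3.43 and 4.45 to 8.52, 6.81 and 7.82 TPM (log2 change 0.81 ± 0.15, adjusted p = 4.89e-04 in limma), still far below its level in Eahy926. In Eahy926 it fell from 2657, 2744 and 2721 to 1756, 1735 and 1654 TPM (-0.66 ± 0.15, adjusted p = 0.00339). The difference between the 2 changes was 1.46 ± 0.22 (adjusted p = 5.96e-05). These calls depend on the controls. With the libraries numbered 0 added, the change was -1.03 in TeloHAEC (adjusted p = 0.386) and -0.26 in Eahy926 (adjusted p = 0.897).

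KRT19 and KRT81 also fell with TNFα in TeloHAEC, by less. KRT19 went to 1014, 1086 and 1021 TPM (log2 change -0.37 ± 0.11, adjusted p = 0.0212 in limma) and KRT81 to 3.98, 4.41 and 3.06 TPM (-0.54 ± 0.17, adjusted p = 0.0301). The treated libraries of both genes lay below their controls, but the call was lost for KRT19 without any 1 of 4 libraries (adjusted p = 0.0551 to 0.0723) and for KRT81 without any 1 of 5 (0.0563 to 0.153). In all, 6 of the 7 genes were called with TNFα in TeloHAEC (5 lower, 1 higher) among 18.2% of all genes, and 4 of 7 in Eahy926 (all lower) among 20.0% of all genes (62.7% of these higher, or 49.3% after rescaling). In Eahy926 KRT19 was 0.463 TPM or less and KRT81 1.35 to 2.13 TPM with TNFα. With the controls numbered 0 added, KRT8 alone was called in Eahy926. The untreated libraries of both lines were in view when the genes were chosen, so nothing is read from these counts. The median log2 change of the 7 genes was -0.54 in TeloHAEC and -0.36 in Eahy926, beside -0.02 and 0.03 over all genes tested.

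The change with TNFα differed between the lines for 4 of the 7 genes, among 10.3% of all genes (31.6% of these positive, or 44.6% after rescaling). KRT18 fell further in TeloHAEC (difference -0.26 ± 0.05, adjusted p = 4.59e-04 in limma), and KRT8 fell further in Eahy926 (0.30 ± 0.08, adjusted p = 0.0212). The KRT8 difference was -0.22 with the controls numbered 0 added, and its call was lost without any 1 of 3 libraries (adjusted p = 0.0590 to 0.0722). KRT7 is given above, and the difference for KRT19, near 0 in Eahy926, was -0.50 ± 0.16 (adjusted p = 0.0457, or 0.0606 to 0.132 without any 1 of 9 libraries). IL-1β libraries of TeloHAEC had lower means of the 7 genes than TNFα libraries. For KRT81 (3.11 ± 0.375 against 3.82 ± 0.689 TPM) the libraries overlapped with no call. The other 6 were called, among 12.7% of all genes (27.6% of these higher, or 43.2% after rescaling). These IL-1β libraries were in view when the genes were chosen, so nothing is read from that count. As KRT18 and KRT8 both fell, their mean ratio went from 10.3 ± 0.285 to 11.9 ± 0.673 with TNFα and 13.3 ± 2.06 with IL-1β in TeloHAEC. It went from 1.21 ± 0.0337 to 2.04 ± 0.129 with TNFα in Eahy926. With neither cytokine the ratio was also above that of the controls in 2 groups, at 1.91 ± 0.00681 in the Eahy926 controls numbered 0 and 12.1 ± 0.316 in TeloHAEC without VEGF.

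VEGF went with few calls. With VEGF added to Eahy926, none of the 7 was called by limma (1 had an unadjusted p under 0.05), and 0.00738% of all genes were. The 95% interval of the log2 change there was -0.34 to 0.30 for KRT7, -0.10 to 0.15 for KRT8, -0.04 to 0.10 for KRT18 and -0.07 to 0.04 for VIM. It was 0.03 to 0.37 for KRT80 (adjusted p = 0.554), KRT81 was 1.51 to 2.62 TPM, and KRT19 was 0.374 TPM or less. Without VEGF in TeloHAEC, KRT18 rose from 690, 640 and 679 to 758, 724 and 749 TPM (log2 change 0.15 ± 0.03, adjusted p = 0.00308). KRT81 rose from 6.50, 5.74 and 5.70 to 10.4, 10.8 and 6.85 TPM (0.55 ± 0.17, adjusted p = 0.0385). These 2 of 7 genes stood among 13.1% of all genes (69.3% of these higher, or 50.6% after rescaling). On rescaling both calls were lost (KRT18 0.11, adjusted p = 0.0882; KRT81 0.51, adjusted p = 0.0539), and the KRT81 call was also lost without any 1 of 5 libraries (adjusted p = 0.0593 to 0.171). KRT19 was 1127, 1091 and 1057 TPM without VEGF, below all 3 controls (-0.30 ± 0.11, adjusted p = 0.0798), and was called lower on rescaling (-0.34, adjusted p = 0.0380). VIM, at 5855 to 6088 TPM, also lay below its controls (-0.05, adjusted p = 0.209). KRT7 (1.74 to 4.76 TPM), KRT8 (59.6 to 64.3 TPM) and KRT80 (25.7 to 27.5 TPM) overlapped theirs. KRT81 shares near-identical sequence with KRT83 and KRT86, so its reads may be split among them. KRT86 was 3.15 ± 0.308 TPM without VEGF and 2.95 ± 0.606 TPM in controls.

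With TNFα, some genes that share a role with the 7 were called too, beside 18.2% of all genes in TeloHAEC and 20.0% in Eahy926. Of 17 other keratins tested, 8 fell and none rose with TNFα in Eahy926, among them KRT72 (3.29 ± 0.782 against 5.02 ± 0.669 TPM) and KRT10 (22.3 ± 1.87 against 26.4 ± 2.88 TPM), and 2 fell in TeloHAEC, KRT17 being one (10.3 ± 0.6245 against 14.3 ± 0.834 TPM). Of 8 other intermediate filament genes, 3 fell in TeloHAEC and 2 in Eahy926 (4 after rescaling), and none rose. LMNA, which encodes the nuclear lamins A and C, was in both counts, at 722 ± 30.7 against 993.5 ± 39.4 TPM in TeloHAEC and 512 ± 24.2 against 728 ± 12.1 TPM in Eahy926. Of 13 filament linkers, 4 fell in TeloHAEC and 4 in Eahy926 (5 after rescaling), and none rose. COL17A1 was 16.2 ± 2.09 against 24.6 ± 1.76 TPM in TeloHAEC, and ITGB4 was 4.14 ± 0.216 against 13.7 ± 3.09 TPM in Eahy926. In Eahy926 PKP2, a desmosomal plaque protein, was 32.3 ± 2.60 against 55.1 ± 6.41 TPM. All of these use the controls numbered 1.1 to 1.3. With those numbered 0 added, genes called in Eahy926 went from 2706 to 1848, and the lists are not given that way. With 1 library left out at a time in TeloHAEC, 1 to 2 other keratins (1 without TNFα 1.3), 2 to 3 other filament genes and 2 to 4 linkers fell. The count of 2 linkers came without control 1.1 or 1.2 or TNFα 1.1. In Eahy926, 5 to 7 other keratins, 2 to 6 other filament genes and 3 to 6 linkers fell. There 5 keratins fell without TNFα 1.2 or 1.3, 6 filament genes and 6 linkers fell without control 1.2, 1 keratin rose without control 1.1, and 2 linkers rose without control 1.3.

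**Figure D3:**
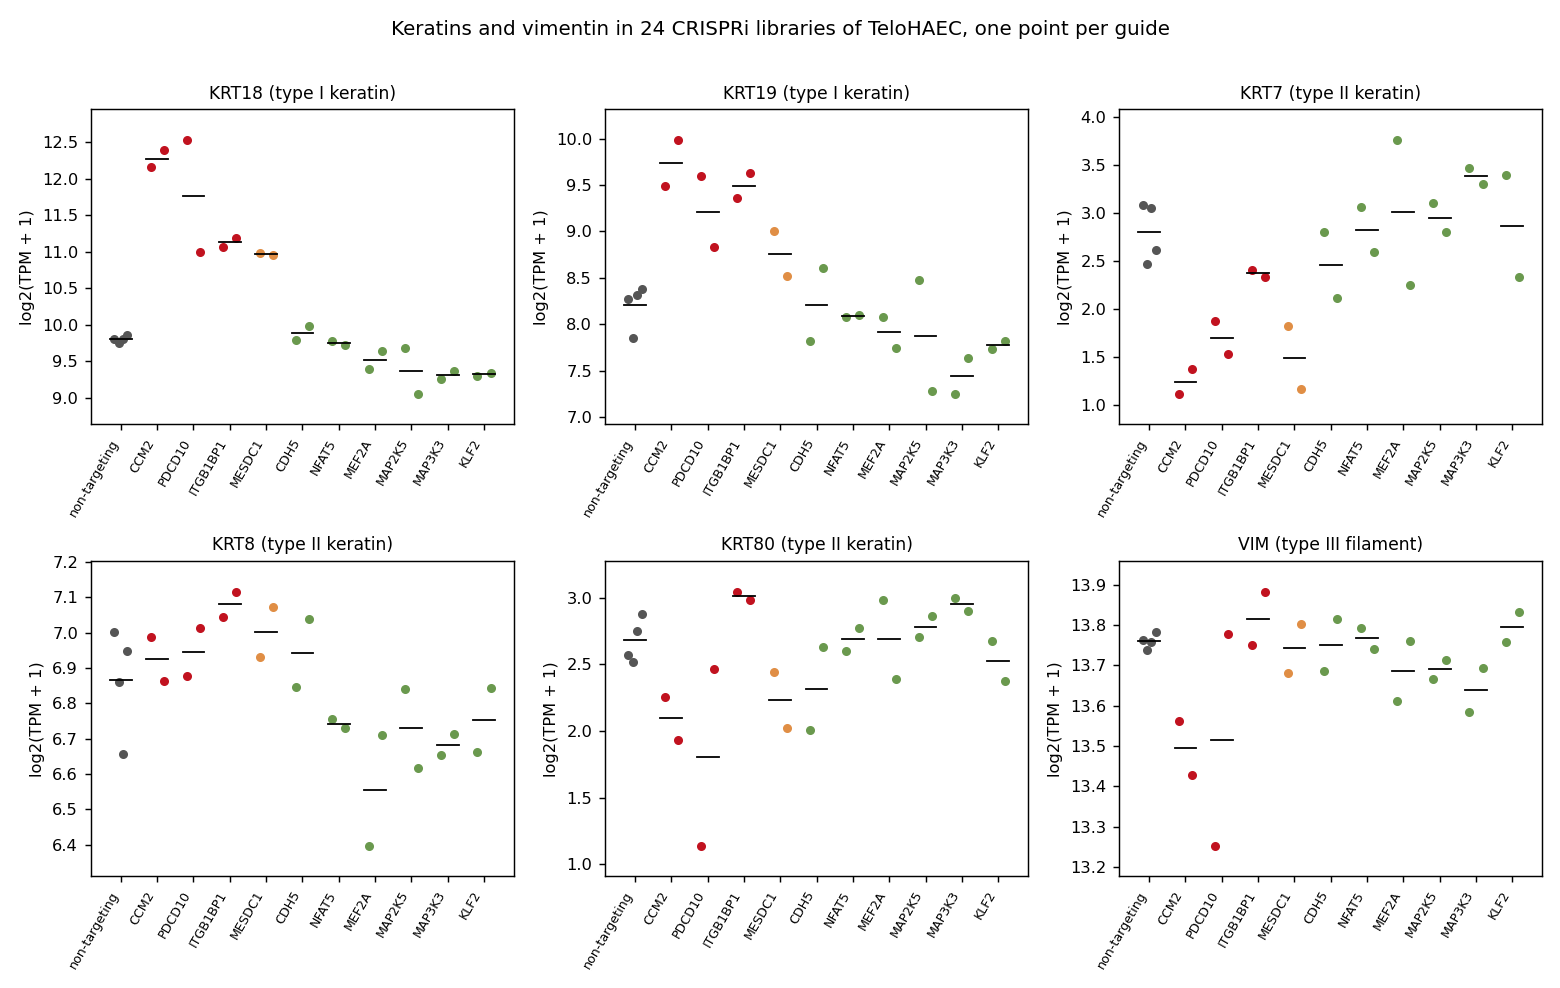
Level of 6 genes in 24 CRISPRi libraries of TeloHAEC, on a log2(TPM + 1) axis that differs between panels and does not start at 0. Points are single guides (grey, non-targeting; red, CCM2, PDCD10 and ITGB1BP1; orange, MESDC1; green, other targets) and black lines are group means; KRT18 lies at 1992 TPM or above in the 8 red and orange libraries and at 1012 TPM or below in the other 16.

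In the CRISPRi set, KRT18 and KRT19 rose with knockdown of CCM2, PDCD10 and ITGB1BP1, while KRT8 was not called. CCM2, PDCD10 and ITGB1BP1 encode proteins of a complex that, as background, restrains the kinases MEKK3 (MAP3K3) and MEK5 (MAP2K5) upstream of the transcription factor KLF2 in endothelial cells. KRT18 stood at 895, 860.0, 896 and 934 TPM with the 4 non-targeting guides. It reached 4558 and 5374 TPM with the CCM2 guides C2 and F6, 5924 and 2047 TPM with the PDCD10 guides D11 and G1, and 2146 and 2332 TPM with the ITGB1BP1 guides C7 and G8. All 6 libraries lay above every control. The log2 change was 2.46 ± 0.26 for CCM2 (adjusted p = 1.06e-05 in limma), 1.96 ± 0.26 for PDCD10 (adjusted p = 0.00106) and 1.32 ± 0.26 for ITGB1BP1 (adjusted p = 0.00457).

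KRT19 rose with KRT18. It was 309, 229, 317 and 331 TPM in the controls, 716 and 1014 TPM with CCM2 guides, 774 and 454 TPM with PDCD10 guides, and 654 and 792 TPM with ITGB1BP1 guides. Again all 6 libraries lay above every control. The log2 change was 1.53 ± 0.29 for CCM2 (adjusted p = 0.00204 in limma), 1.29 ± 0.29 for ITGB1BP1 (adjusted p = 0.0118) and 1.01 ± 0.29 for PDCD10 (adjusted p = 0.0447). With 2 guides a target, single libraries decide some of these calls. Without CCM2 F6 the KRT19 change was 1.28 (adjusted p = 0.0772), and without PDCD10 D11 it was 0.63 (adjusted p = 0.703). Without any 1 non-targeting library the PDCD10 call on KRT19 was lost too (adjusted p = 0.0585 to 0.0988). Without either ITGB1BP1 guide both keratins kept their direction but not the call, at an adjusted p of 0.0551 to 0.0555 for KRT18 and 0.0793 to 0.118 for KRT19.

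KRT8, the usual partner of KRT18, was 127, 115, 99.97 and 122 TPM in the controls and 115 to 138 TPM in the 8 libraries with guides to CCM2, PDCD10, ITGB1BP1 and MESDC1. Its log2 change was 0.06 for CCM2 (95% interval -0.17 to 0.29), 0.08 for PDCD10 (-0.15 to 0.31) and 0.21 for ITGB1BP1 (-0.01 to 0.44), with no call, although both ITGB1BP1 libraries (131 and 138 TPM) lay above every control. RefSeq places KRT8 and KRT18 as neighbouring protein-coding genes on chromosome 12. The KRT18 to KRT8 ratio was 7.77 ± 0.8291 (SD, n = 4) in the controls and 41.4 ± 7.33 (n = 2) with CCM2 guides, 33.4 ± 24.7 with PDCD10 guides and 16.7 ± 0.402 with ITGB1BP1 guides. The type II sum was 128 ± 11.6 TPM in controls, 125 ± 7.75 TPM with CCM2 guides and 128 ± 9.36 TPM with PDCD10 guides. It was 146 ± 4.46 TPM with ITGB1BP1 guides, whose libraries (143 and 149 TPM) lay above the controls (113 to 139.5 TPM). With CCM2 guides the type I sum went from 1193 ± 74.1 to 5832 ± 788 TPM. Sums of the pseudogene rows named for KRT18 were 0.375% of the gene and its pseudogenes in controls and 0.448% with CCM2 guides, so reads listed under them were few.

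KRT7, low in these cells, fell with CCM2 guides. It was 7.503, 4.53, 7.28 and 5.13 TPM in the controls and 1.17 and 1.59 TPM with CCM2 guides (log2 change -1.56 ± 0.36, adjusted p = 0.00726 in limma). It was 2.66 and 1.88 TPM with PDCD10 guides (-1.11 ± 0.36, adjusted p = 0.0684) and 4.30 and 4.04 TPM with ITGB1BP1 guides (-0.43 ± 0.36, adjusted p = 0.507), which did not pass. These libraries too lay below every control. Without CCM2 C2 or F6 the adjusted p for CCM2 was 0.0574 or 0.0644. KRT80 was 4.74 to 6.36 TPM in the controls, 3.78 and 2.81 TPM with CCM2 guides and 1.21 and 4.53 TPM with PDCD10 guides, with no call. With ITGB1BP1 guides KRT80 was 7.25 and 6.92 TPM (0.34, adjusted p = 0.511) and VIM 13771 and 15098 TPM (0.06, adjusted p = 0.824). VIM was 13655 to 14096 TPM in the controls and 12094 and 11013 TPM with CCM2 guides (-0.27 ± 0.11, adjusted p = 0.138). In total 3 of 6 genes were called for CCM2 (2 higher, 1 lower) among 14.0% of all genes, 2 of 6 for ITGB1BP1 among 7.70% and 2 of 6 for PDCD10 among 7.04%, both higher in each. Of all genes called, 40.3%, 43.3% and 35.4% were higher for CCM2, ITGB1BP1 and PDCD10, or 61.6%, 63.0% and 61.9% with libraries rescaled, which moved the median of all genes by up to 0.1 and changed no call among the 6 genes.

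The 2 PDCD10 guides differed. With D11, PDCD10 itself was 4.81 TPM, 12.9% of the control mean, and with G1 it was 15.2 TPM, 40.9%. Library D11 had 5924 TPM of KRT18, 1.21 TPM of KRT80 and 9762 TPM of VIM, and library G1 had 2047, 4.53 and 14047 TPM. VIM in D11 was the lowest of the 24 CRISPRi libraries. Without G1, KRT80 (log2 change -1.54, adjusted p = 4.37e-04 in limma) and VIM (-0.51, adjusted p = 0.00221) were called lower, which rests on a single library. D11 also had 59.1 TPM of KRT15, 10.1 TPM of KRT6B and 8.39 TPM of KRT6A, against 5.81 to 12.6, 0.274 to 0.741 and 0.312 to 0.892 TPM in controls. KRT81 reached 1.46 TPM in D11 and 0.712 TPM or less in each other CRISPRi library. KRT15, KRT6A and VIM in D11 were singled out after their values were seen.

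**Figure D4:**
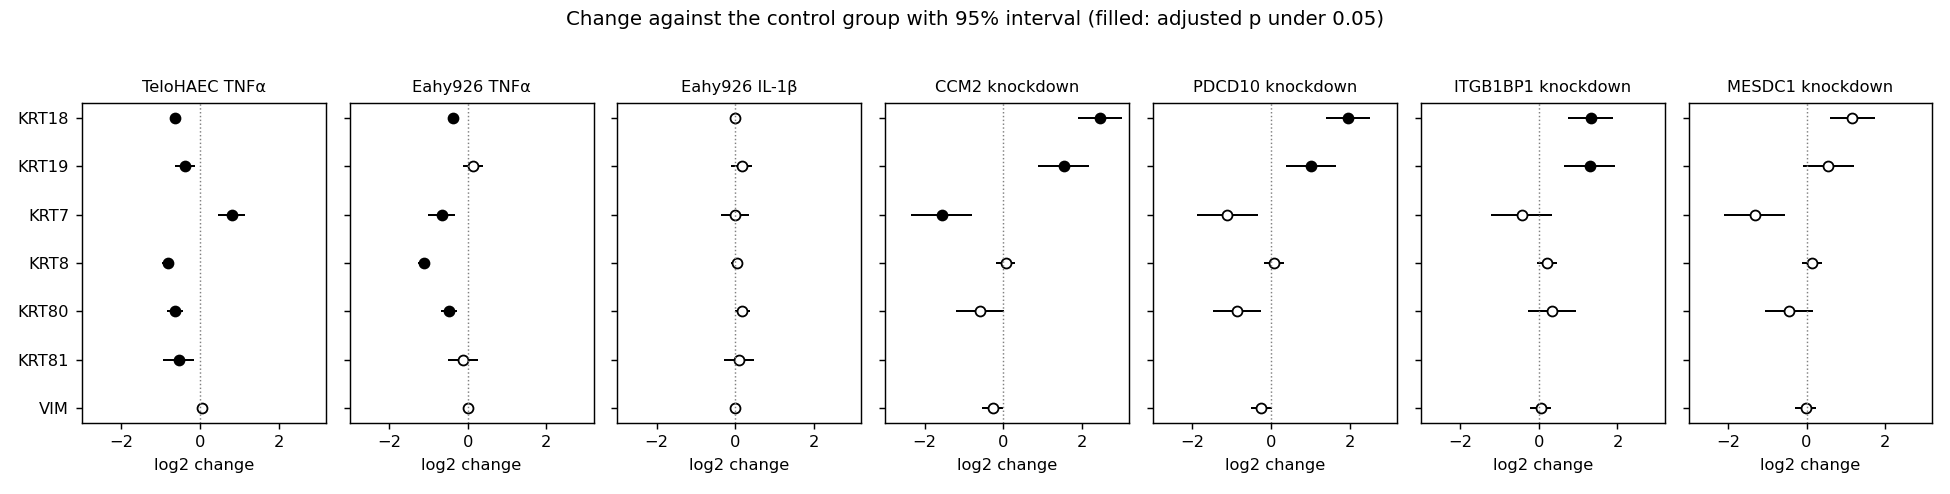
Log2 change against the control group with its 95% interval for each gene, in 3 parental treatments (n = 3 against 3) and 4 knockdowns (2 guides against 4), filled where the adjusted p was under 0.05. KRT18 and KRT19 lie to the right in the knockdown panels while KRT8 lies near 0, and KRT8, KRT18 and KRT80 lie to the left in both TNFα panels.

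With MESDC1 guides KRT18 was also above every control, just short of a call. MESDC1, listed as TLNRD1 in these columns, encodes a talin-rod-like protein. Its guides left 9.76% and 20.3% of the target. KRT18 was 2016 and 1992 TPM, both above every control (log2 change 1.16 ± 0.26, adjusted p = 0.0515 in limma), and it was called with genes of at least 5 TPM (adjusted p = 0.0405) and on rescaling (adjusted p = 0.0480). KRT19 was 511 and 365 TPM (0.56 ± 0.29, adjusted p = 0.549), and KRT7 was 2.54 and 1.24 TPM (-1.31 ± 0.36, adjusted p = 0.128). KRT8 was 121 and 134 TPM (0.14, adjusted p = 0.742), KRT80 4.43 and 3.07 TPM (-0.45, adjusted p = 0.636) and VIM 13140 and 14292 TPM (-0.02, adjusted p = 0.985). None of 6 genes was called and 2 had an unadjusted p under 0.05, among 0.552% of all genes called.

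Knockdown of the kinases and of KLF2 gave lower values of KRT18 that did not pass. KRT18 was 614 and 658 TPM with MAP3K3 guides (-0.49 ± 0.26, adjusted p = 0.722 in limma) and 631 and 650.4 TPM with KLF2 guides (-0.48 ± 0.26, adjusted p = 1.00). These 4 libraries lay below every control, as did KRT19 in them (151 to 225 against 229 TPM or more). KRT7 was 10.1 and 8.88 TPM with MAP3K3 guides, above every control (0.58 ± 0.36, adjusted p = 0.789). MAP2K5 fell to 5.11% of control with guide B5, where KRT18 was 532 TPM and KRT19 154 TPM, but it stood at 105% with guide A11, where KRT18 was 826 TPM and KRT19 354 TPM. The library labelled MAP2K5 A11 thus did not show its target reduced, and without it the KRT18 change was -0.75 (adjusted p = 0.812). MEF2A guides gave 676 and 797 TPM of KRT18. CDH5 guides gave 883 and 1012 TPM, and NFAT5 guides 875 and 843 TPM, where the library labelled NFAT5 D7 kept 97.1% of its target. KRT18 thus lay below every control in the MAP2K5 and MEF2A libraries and in NFAT5 D7 as well. Among these are MAP2K5 A11 and NFAT5 D7, which kept their target. The fits of MAP2K5 and NFAT5 include these libraries, so their lack of calls is not a result of knockdown alone. Over the 12 libraries of these 6 knockdowns KRT7 was 3.32 to 12.6 TPM, KRT8 83.3 to 130.4 TPM, KRT80 3.03 to 6.98 TPM and VIM 12291 to 14583 TPM. In these 6 knockdowns no gene of the 6 was called (1 had an unadjusted p under 0.05 for MAP3K3 and 1 for MEF2A). Calls over all genes were 0.0566% for MAP3K3, 0.0141% for KLF2, 0% for MAP2K5 (550 genes had an unadjusted p under 0.05), 0.00707% for MEF2A, 0.0141% for CDH5 and 0.00707% for NFAT5.

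ITGB4 and COL17A1 of the hemidesmosome rose in the knockdowns of CCM2, ITGB1BP1, PDCD10 and MESDC1. Of 12 filament linkers tested, 6 rose and 1 fell for CCM2, 3 rose and none fell for ITGB1BP1, 2 rose and 1 fell for PDCD10, and 2 rose and none fell for MESDC1. The shares of all genes called were 14.0%, 7.70%, 7.04% and 0.552%. Their median log2 change was 0.36, 0.08, 0.37 and 0.09, beside -0.10, -0.08, -0.10 and -0.04 over all genes. Leaving out 1 library at a time, 2 to 5 rose for CCM2, 2 to 3 for ITGB1BP1, 0 to 5 for PDCD10 and 1 to 2 for MESDC1. The lowest came without CCM2 F6, either ITGB1BP1 guide, PDCD10 D11 and MESDC1 B3, and 5 rose for PDCD10 without G1. ITGB4 rose from 11.9 ± 1.64 TPM in controls to 137 ± 15.7 TPM for CCM2, 124 ± 11.5 TPM for ITGB1BP1, 76.1 ± 4.79 TPM for MESDC1 and 50.2 ± 4.39 TPM for PDCD10 (log2 changes 3.43, 3.29, 2.59 and 2.00, adjusted p at most 0.00257 in limma). COL17A1 rose from 7.04 ± 0.631 to 36.1 ± 4.74, 27.1 ± 8.56, 21.4 ± 4.51 and 14.1 ± 4.495 TPM for CCM2, ITGB1BP1, MESDC1 and PDCD10. ITGA6, which lies outside the naming rule for CCM2 and was chosen after its values were seen, was 323 ± 81.8 TPM for CCM2 against 171 ± 11.7 TPM. The desmosomal plaque gene JUP fell, to 47.4 ± 29.3 TPM for CCM2 and 78.9 ± 52.1 TPM for PDCD10 from 148 ± 12.2 TPM. As these SDs show, the 2 guides of each target lay far apart, so the fall rests largely on single libraries. For PDCD10 no linker was called lower after rescaling or without any 1 non-targeting library. ITGB4 fell with MAP3K3 guides, to 2.48 ± 1.70 TPM (adjusted p = 0.00828).

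Other filament genes moved less. Of 4 other keratins tested, none was called for CCM2, ITGB1BP1 or MESDC1 and KRT6B alone was for PDCD10, through guide D11. LMNA rose for CCM2, from 1143 ± 48.7 to 1813 ± 59.6 TPM (adjusted p = 2.42e-04 in limma), as 1 of 9 other intermediate filament genes. These counts stand beside the same shares of all genes. Among 11 regulators of epithelial and mesenchymal state, SNAI2 rose from 1.11 ± 0.318 TPM to 13.3 ± 3.56 TPM for CCM2, 8.49 ± 1.08 TPM for ITGB1BP1 and 17.4 ± 19.8 TPM for PDCD10, where the 2 guides lay far apart at 31.4 and 3.37 TPM. S100A4 rose to 46.2 ± 1.40 from 10.3 ± 2.11 TPM for CCM2. CDH2, N-cadherin, fell there to 6.11 ± 2.02 from 12.6 ± 1.12 TPM, as 1 of 2 regulators called lower (1 after rescaling). Of the 3 regulators called higher and 2 called lower for CCM2, 2 to 3 and 1 were left without any 1 non-targeting library. With 2 guides a target, some regulator calls for CCM2, ITGB1BP1 and PDCD10 were lost when a single guide was left out. The 9 epithelial markers summed to 9.09 to 12.5 TPM in controls, 13.0 to 19.6 TPM with CCM2 guides, 16.2 to 23.8 TPM with ITGB1BP1 guides and 9.18 to 10.50 TPM with PDCD10 guides, with 2 or 3 of 9 reaching 1 TPM. The 10 endothelial markers summed to 2296 to 2402 TPM in controls, 2675 to 2793 TPM with CCM2 guides, 2070.2 to 2398 TPM with ITGB1BP1 guides, 2012 to 2198 TPM with PDCD10 guides and 2571 to 2673 TPM with MESDC1 guides. This sum, which abundant genes dominate, thus lay above every control for CCM2 and MESDC1 and below every control for PDCD10. The 10 genes did not rise as a set. Their median log2 change was -0.14 for CCM2, -0.06 for MESDC1 and -0.36 for PDCD10, beside -0.10, -0.04 and -0.10 over all genes. Of 4 leukocyte markers, 1 (CD14) reached 1 TPM, and CD3E was at 0 in the controls. Their sum was 12.1 to 14.3 TPM in controls, 41.04 to 48.3 TPM with CCM2 guides, 20.5 to 24.4 TPM with ITGB1BP1 guides, 32.9 to 62.02 TPM with MESDC1 guides and 5.81 to 16.3 TPM with PDCD10 guides. CD14 was called higher for CCM2 (log2 change 1.74, adjusted p = 0.00810 in limma). The part of these markers in the keratin result was not tested.

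**Figure D5:**
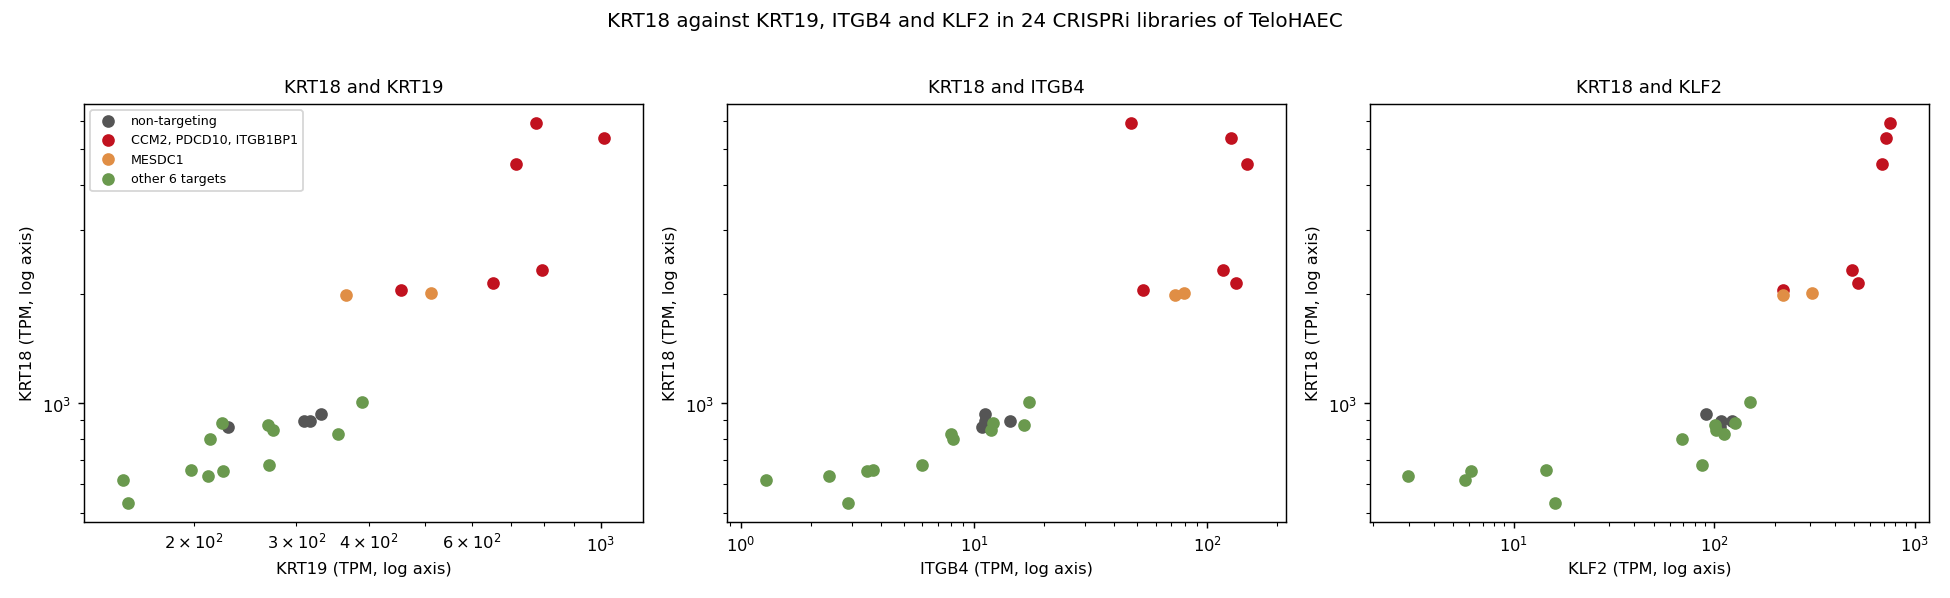
KRT18 against KRT19, ITGB4 and KLF2 in 24 CRISPRi libraries, 1 point per guide, all axes logarithmic. The 8 libraries of CCM2, PDCD10, ITGB1BP1 (red) and MESDC1 (orange) lie above the non-targeting guides (grey) and the other targets (green) on the KRT18 axis and to their right for ITGB4 and KLF2, while for KRT19 the ranges overlap (365 TPM or more against 389 TPM or less).

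Across the 24 CRISPRi libraries KRT18 and KRT19 varied together (Pearson r = 0.926 on log2(TPM + 1)), and KRT18 had r = 0.894 with ITGB4, 0.912 with COL17A1 and 0.901 with LMNA. KRT7 ran against KRT18 (r = -0.786), and VIM did so less (r = -0.537). The libraries share targets and a few of them hold most of the range, so these are descriptions. By Pearson r, the genes nearest to KRT18 among 9793 were CD9, PI16 and EVA1C (r = 0.983, 0.981 and 0.979), and those nearest to KRT19 were TINAGL1, CRISPLD2 and KRT19P1 (r = 0.9746, 0.972 and 0.970), of which KRT19P1 is a pseudogene of KRT19. SDC3, CHMP4B and NDST1 were nearest to KRT7 (r up to 0.919), TSC22D3, ZNF524 and STN1 to KRT8 (r up to 0.844), PCNX2, YIPF3 and SUFU to KRT80 (r up to 0.831), and UBE2R2, JAGN1 and ACTA2 to VIM (r up to 0.890).

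In the 24 parental libraries numbered 1.1 to 1.3, after each line's mean was subtracted, the nearest gene to KRT8 among 10397 was LMNA (r = 0.986), followed by PLCD3 and RGS5. RGS4, RNASE1 and TMEM106C were nearest to KRT18 (r up to 0.985), BCAR3, DGKA and EIF4ENIF1 to KRT19 (r up to 0.903), GSN, TINAGL1 and ABHD4 to KRT80 (r up to 0.977), CDCA7L, MAGI2-AS3 and KIF2C to KRT81 (r up to 0.905, among 10398), and GLIS2, CCDC24 and ANKRD33B to VIM (r up to 0.811). TINAGL1 was named in both sets, for KRT80 in parental cells and for KRT19 under CRISPRi.

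KLF2, chosen after its values were seen, is set beside KRT18 because 1 knockdown targets it. KLF2 stood at 91.3 to 123 TPM in the non-targeting controls, 690 and 723 TPM with CCM2 guides, 754 and 221 TPM with PDCD10 guides D11 and G1, and 519 and 486 TPM with ITGB1BP1 guides. MESDC1 guides gave 308 and 220 TPM of KLF2, and MAP3K3 guides 5.71 and 14.5 TPM. The r of KLF2 with KRT18 was 0.822 over the CRISPRi libraries and 0.904 over the parental ones after line means were subtracted. In TeloHAEC KLF2 was 87.1 ± 2.67 TPM in controls, 40.6 ± 2.96 TPM with IL-1β and 52.0 ± 3.73 TPM with TNFα, and KRT18 had that order in these 3 groups. Other TeloHAEC groups did not follow it. Without VEGF KLF2 was lower than in controls, at 73.5 ± 0.668 TPM, where KRT18 was higher. For the TeloHAEC controls numbered 0, KLF2 was 47.9 ± 0.715 TPM where KRT18 overlapped the other controls. Mean KLF2 in Eahy926 was 134 TPM in controls, 125 with IL-1β, 114 with TNFα, 130 with VEGF and 113 in controls numbered 0. Mean KRT18 there was 776, 774, 602, 791 and 548 TPM in the same order of groups. The part of KLF2 in the KRT18 values was not tested. The ranges differed at the low end: with KLF2 guides KLF2 was 2.99 and 6.12 TPM, 2.78% and 5.69% of control, while KRT18 was 0.704 and 0.726 times its control mean.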

How the data were processed

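The authors deposited 1 table of TPM for 52 libraries and 43290 symbols, per the file headers, and 0 columns lacked a sample. Per the submitters' processing notes, Bowtie2 and kallisto were used with hg19, and no versions are given in the sources used here. Poly-A RNA was sequenced, per the labels' protocols. The 28 parental and 24 CRISPRi columns hold 27311 and 35587 symbols and were fitted separately.

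A gene was tested if 3 parental or 2 CRISPRi libraries reached 1 TPM (13542 and 14143 genes). limma 3.58.1 in R 4.3.3 (trend, empirical Bayes) was run on log2(TPM + 1), with 8 parental or 11 CRISPRi groups sharing 1 spread. Fold changes are on that scale, which understates low genes. P-values are two-sided and Benjamini-Hochberg adjusted over all genes of a comparison, with a threshold of 0.05. In all, 20 comparisons were read from the fits. Because TPM add up to a fixed total, more RNA of abundant genes leaves less for others. The fit was tested on simulated data.

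The 7 genes and the lists were chosen with earlier results of these data known. By rule the 7 are named in every comparison, those not called in part by range, with up to 4 genes of each list that passed and whose higher group reached 5 TPM, largest change first, the 3 genes most like each of the 7 (for KRT7 in parental cells not reported here), and each knockdown target. Replicate numbers did not pair libraries: mean r was 0.0125 in Eahy926 and -0.00078 in TeloHAEC, with 0 of 18 pairs above 0.1 in either line. Alternatives were a pseudocount of 0.1, no filter, a filter of 5 TPM, library rescaling by the median of ratios over genes, all 5 controls of a line, a replicate block and leaving out each library. Guides were matched to GENCODE 29 and RefSeq sequences. Promoter entries were found for 2 of the 7 genes and are not used here. Summaries were made with pandas 2.3.3 and numpy 2.4.6 (Python 3.11.15), figures with matplotlib 3.10.9.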

Additional observations from a re-analysis of the deposited data

Results flagged for a closer look

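KRT7 in the TeloHAEC controls numbered 0, which no comparison used, had a mean 29.6 times that of the other controls of this line.

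The log2 change with IL-1β differed between the lines (TeloHAEC minus Eahy926) for KRT8 by -1.28, KRT18 by -0.91, KRT19 by -1.11, KRT80 by -1.30, KRT81 by -0.86 and VIM by -0.13 in limma. For VIM the difference was -0.01 after rescaling by the median of ratios. The TeloHAEC libraries with IL-1β were in view when the genes were chosen, so nothing is read from these differences being flagged. The log2 change with TNFα differed for KRT7 by 1.46, KRT8 by 0.30, KRT18 by -0.26 and KRT19 by -0.50.

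Among the 4 non-targeting libraries, F4 alone listed KRT81 above 0, at 0.139 TPM. Such a gap was looked for in 7 groups, and chance flags about 1 in 20. With every other library of the group at 0, any value above 0 is flagged, so that rate does not hold for KRT81.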

How the results depend on the processing

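Of the single-gene values under alternatives, 1446 kept their direction and their side of the threshold, 68 lost the call, 7 gained it and 3 turned. All 3 that turned did so when the controls numbered 0 were added: KRT7 with TNFα in TeloHAEC (-1.03), and the difference between the lines with TNFα for KRT7 (-0.77) and KRT8 (-0.22). With those controls added, 0 of the 7 genes were called without VEGF, 2 for IL-1β against TNFα in TeloHAEC, 1 with TNFα in Eahy926 and 1 for the difference in the TNFα change. Without VEGF, 1 was called with a pseudocount of 0.1 or no filter (KRT18, higher) and 1 on rescaling (KRT19, lower, adjusted p = 0.0380), where KRT18 and KRT81 lost theirs. For MESDC1, 1 was called at 5 TPM or more and 1 after rescaling. With a pseudocount of 0.1 KRT19 lost its call with TNFα in TeloHAEC (adjusted p = 0.716). KRT19 for PDCD10 lost it with no filter (adjusted p = 0.108).

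Leaving out each library in turn, the number called ranged from 4 to 6 for TNFα in TeloHAEC, 1 to 2 without VEGF, 2 to 4 for the TNFα difference, 1 to 3 for CCM2, 0 to 2 for ITGB1BP1 and 1 to 4 for PDCD10. Where this leaves 1 guide, it is assumed to vary like the other groups. With the replicate block 7 genes were called between the lines and 6 with IL-1β in TeloHAEC, as without it, and 1 call was lost, KRT19 in the TNFα difference (-0.50, adjusted p = 0.0795). The depth of the libraries is unknown, so what it limits cannot be stated.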
